A study of Mus musculus with 48 samples.

Results

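The 12 normoxic hearts of 16-week-old and 8-week-old mice were compared over every gene the arrays detected, 6 hearts at each age out of the 48 hearts of the series. All mice were male C57BL/6 animals bought at 7 weeks of age and kept in the same facility until 8, 16, 32 or 48 weeks, so the youngest mice had spent the least time there, and age and time in the facility cannot be told apart. Each heart was excised under pentobarbital, perfused through the aorta outside the body (Langendorff method) and left to stabilise for 20 min. Normoxic hearts then received oxygenated perfusion for as long as the ischaemia-reperfusion (I/R) hearts took to pass through 25 min of global ischaemia and 45 min of reperfusion. The normoxic samples are therefore perfused hearts cut off from blood and nerves, not fresh tissue. The left ventricle was dissected, and its RNA was hybridised to an Illumina mouse bead array, 1 array per heart. No slide, hybridisation run or collection time was given in the sources used here, so a batch that followed age cannot be told apart from age.

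The interval from 8 to 16 weeks takes a mouse from young adulthood, just after puberty, to full maturity. In rodent hearts the switch from glycolysis to fatty acid oxidation and the end of cardiomyocyte division are complete by about weaning, while body weight and heart weight still grow slowly in young adults. Collagen of the ventricle is made mainly by fibroblasts, and its synthesis is higher in growing than in resting tissue. Because each sample is a piece of ventricle, fewer cells of a type and less RNA per cell cannot be told apart in what follows.

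Of 9811 genes tested, 4 differed between the ages at an adjusted p under 0.05 in limma, 0.0408% of all genes, of which 2 were higher (0.0204%) and 2 lower (0.0204%) at 16 weeks. Amy2a5 and Aox1 rose, and Ddc and Kcne1 fell. The median log2 fold change over all genes was −0.00060, and 100 genes had a fold over 0.5 in size on the log2 scale, 3 of them over 1. For comparison, the median gene had a standard deviation (SD) between hearts of 0.185 at 8 weeks and 0.191 at 16 weeks. At an unadjusted p under 0.05 there were 561 genes, or 5.72%, 282 of them higher (2.87%) and 279 lower (2.84%) at 16 weeks. In 20 genes, 0.204% of all, the lowest 16-week heart lay above the highest 8-week heart, and in 27 genes, 0.275%, the order was the opposite. The number of genes past the threshold depended on single hearts. It was 0 without replicate 4 of the 8-week group, with 511 genes at an unadjusted p under 0.05 in limma, and 0 without replicate 6 of the 16-week group, with 463. It was 1 without replicate 2 or replicate 3 of the 8-week group, 2 without 8-week replicate 1 or without 16-week replicate 3, 4 or 5, and 6 without 16-week replicate 2.

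Quality measures overlapped between the ages. The RNA integrity number (RIN, from the labels) was 8.52 ± 0.299 (SD, n = 6) at 8 weeks and 8.75 ± 0.308 (SD, n = 6) at 16 weeks, and the difference of 0.233 had a two-sided exact permutation p of 0.249. The number of detected probes ranged from 14046 to 14321 at 8 weeks and from 13650 to 15033 at 16 weeks (two-sided exact permutation p = 0.820). All 13 cardiomyocyte markers were detected on all 12 arrays, as were 17 of 18 endothelial, 9 of 13 fibroblast and 9 of 15 macrophage markers with a probe. Of the 14 lymphocyte markers with a probe, 10 were detected on no array. The atrial myosin light chain gene Myl7 ranged from 8.34 to 11.27 at 8 weeks, with a median of 10.46, and from 8.45 to 10.32 at 16 weeks, with a median of 9.11. Its partner Myl4 ranged from 9.70 to 12.59 and from 9.69 to 11.44. Levels of both were therefore spread widely over hearts dissected as left ventricle, with 8-week replicates 2, 3, 5 and 6 and 16-week replicate 5 at the upper end. Their part in the results below was not tested.

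Amy2a5 encodes a pancreatic alpha-amylase, the enzyme that cuts starch, and it gave the smallest p of all genes. Its log2 normalized signal ran from 7.91 to 8.25 at 8 weeks, with a median of 8.11, and from 8.58 to 9.39 at 16 weeks, with a median of 9.01. The groups did not overlap, and every array of both detected the probe. The mean rose from 8.09 to 9.0, a log2 fold of 0.92 ± 0.162 (SE) or 1.89-fold, with an adjusted p of 0.0105. Leaving out replicate 4 of the 8-week group raised the adjusted p to 0.0515, and leaving out replicate 6 of the 16-week group raised it to 0.0964, with log2 folds of 0.88 and 0.84.

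The level of Amy2a5 went on upwards with age, to a mean of 9.22 at 32 weeks and 9.71 at 48 weeks. The step from 16 to 32 weeks missed the threshold (log2 fold 0.22), and that from 16 to 48 weeks passed it (0.71 ± 0.162, adjusted p = 0.0256). Among I/R hearts, which share none with the normoxic ones, the mean rose from 7.89 at 8 weeks to 9.22 at 16 weeks. That log2 fold of 1.32 had an adjusted p of 2.09e-06, and the difference between the normoxic and the I/R step was −0.41 ± 0.229 (adjusted p = 0.902).

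The salivary and liver amylase gene Amy1 was the nearest gene to Amy2a5 by pattern, with a Pearson correlation of 0.85 over the 24 normoxic arrays, which also differ in age. Acsm5 (0.85) and Prkcq (0.84) were almost as near. Amy1 was dim, with means of 5.85 and 6.31, and its log2 fold of 0.46 missed the threshold in normoxic hearts (adjusted p = 0.818) while 1.28 in I/R hearts passed it (adjusted p = 0.000344). Amylase genes are near-identical copies, probe sequences were not used here, and whether the probes share signal was not tested. A list of 23 genes of digestive glands and kallikreins had a probe for 19, of which 11 were detected on no array. Among those at no detection were the pancreatic proteases Cpa1, Cpb1, Prss1, Prss2 and Ctrb1, and colipase, Clps. Only Amy2a5 of that list was detected on all 12 arrays, Amy1 was detected on 11 and Klk1b26 on 8.

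Aox1 encodes aldehyde oxidase, a molybdenum enzyme that oxidises aldehydes and nitrogen heterocycles. Its level ran from 9.02 to 9.47 at 8 weeks, with a median of 9.20, and from 9.50 to 10.23 at 16 weeks, with a median of 9.87. The highest young heart lay just under the lowest older one. The mean rose from 9.21 to 9.89, a log2 fold of 0.68 ± 0.140 (SE) or 1.60-fold, with an adjusted p of 0.0400. The call was the least steady of the 4, since it was lost in 11 of the 12 fits that left out 1 heart and kept only without 16-week replicate 1, with an adjusted p of 0.270 at most. Direction was kept in all 12, with log2 folds from 0.61 to 0.76. A second, dim probe of Aox1 gave 0.03 in normoxic hearts.

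Aox1 levels stayed at the 16-week mean later on, at 9.89 at 32 weeks and 10.01 at 48 weeks. Between 8 and 16 weeks the mean of the I/R hearts rose from 9.40 to 9.92 (log2 fold 0.53, adjusted p = 0.0354). That I/R call was kept in 5 of 12 fits without 1 I/R heart, those without replicates 2 and 6 of the 8-week group and 2, 5 and 6 of the 16-week group, with an adjusted p of up to 0.117 in the others. It was also lost in 6 of 12 other settings. The iron exporter gene Slc40a1 was its nearest gene by pattern (Pearson correlation 0.86 over the 24 normoxic arrays, which also differ in age). Calr3 at 0.81 and Ddhd1 at 0.79 followed.

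Kcne1 encodes the single-span subunit that slows and enlarges the potassium current through KCNQ1 channels, a current known for its part in repolarising the ventricle. Its level ran from 8.48 to 9.47 at 8 weeks, with a median of 8.88, and from 7.09 to 8.14 at 16 weeks, with a median of 7.59. The groups did not overlap. The mean fell from 8.92 to 7.56, a log2 fold of −1.36 ± 0.279 (SE) or 2.56-fold, with an adjusted p of 0.0400, the largest change of the 4. It lost the threshold in 10 of 12 fits without 1 heart, all but those without 8-week replicate 6 and 16-week replicate 2, where the adjusted p was 0.0398 and 0.0249. Over those 12 fits its log2 fold lay between −1.48 and −1.25.

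Kcne1 was lower still at later ages, with means of 6.90 at 32 weeks and 6.69 at 48 weeks, steps from 16 weeks that missed the threshold. I/R hearts showed the same, with a mean that fell from 8.72 to 7.49 between 8 and 16 weeks (log2 fold −1.23, adjusted p = 0.0119). A second probe of Kcne1 was detected on 4 of 6 arrays at 8 weeks and on 1 of 6 at 16 weeks, with a log2 fold of −0.34.

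Ddc encodes aromatic amino acid decarboxylase, which makes dopamine from L-DOPA and serotonin from 5-hydroxytryptophan. Its level ran from 6.56 to 7.22 at 8 weeks, with a median of 6.96, and from 5.52 to 6.31 at 16 weeks, with a median of 6.21. The groups did not overlap, and 6 arrays at 8 weeks but 5 at 16 weeks detected the probe. The mean fell from 6.93 to 6.06, a log2 fold of −0.87 ± 0.167 (SE) or 1.82-fold, with an adjusted p of 0.0235. Without 8-week replicates 2, 3 or 4 the adjusted p was 0.130, 0.0883 and 0.0649, and without 16-week replicate 6 it was 0.239. The second probe of Ddc was detected on all 12 arrays and gave −0.50.

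At 32 weeks 1 of 6 arrays detected Ddc and at 48 weeks none did, with means of 5.52 and 5.26. From 16 to 48 weeks it fell by a further 0.80 on the log2 scale (adjusted p = 0.0125). The I/R mean fell from 6.66 to 6.03 between 8 and 16 weeks (log2 fold −0.63, adjusted p = 0.0337), and 3 of 6 arrays detected it at 16 weeks. That I/R call was kept in 4 of 12 fits without 1 I/R heart, those without replicate 4 of the 8-week group and 2, 4 and 6 of the 16-week group, with an adjusted p of up to 0.104 in the others. In 6 of 12 other settings it was lost too, where the adjusted p reached 0.385 and the log2 fold was as small as −0.17. Ddc and Kcne1 were each other's nearest gene by pattern, with a Pearson correlation of 0.93 over the 24 normoxic arrays. Those arrays also differ in age, and both genes fell with age, so this correlation cannot be told apart from a shared change with age. Next to Ddc stood the fibrillar collagen gene Col1a1 (0.86), and next to Kcne1 stood Ramp1 (0.86), the accessory protein that gives the calcitonin receptor-like receptor its affinity for the peptide CGRP. Tnni2 followed in both cases, at 0.82 for Ddc and 0.84 for Kcne1.

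**Figure D1:**
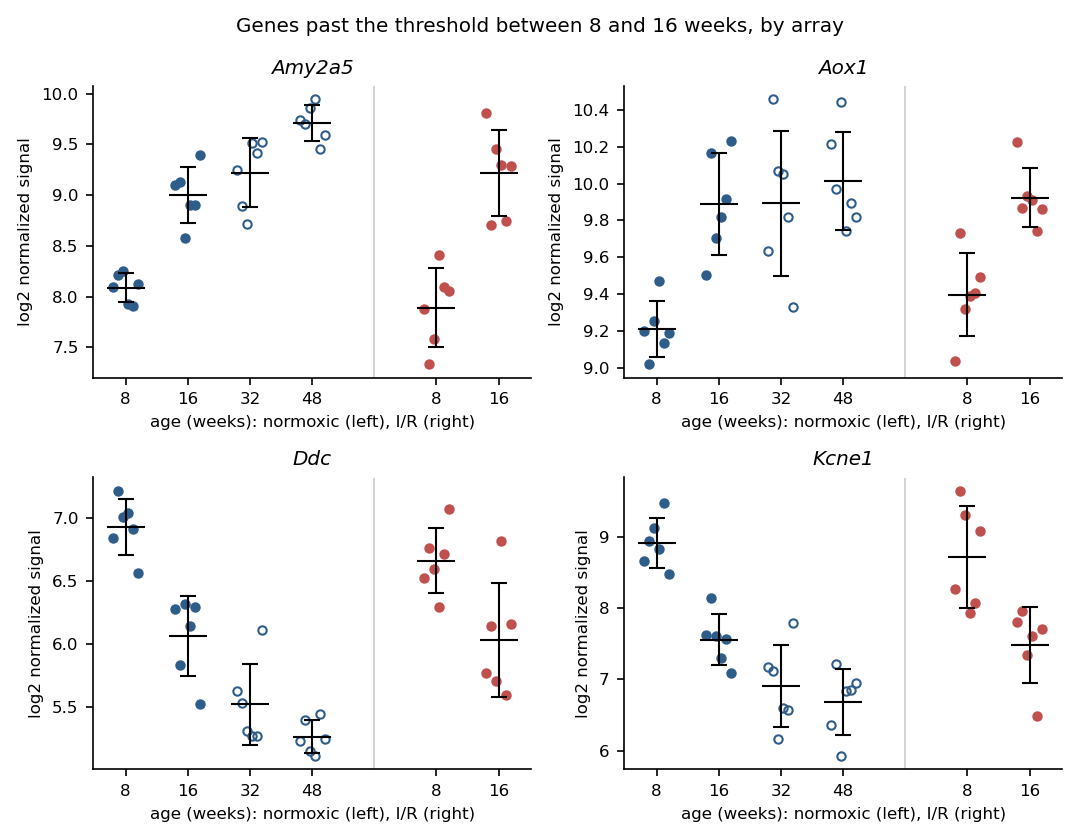
Log2 normalized signal of the 4 genes past the threshold, 1 point per array, against age in weeks for normoxic hearts (blue, filled at 8 and 16 weeks, open at 32 and 48) and I/R hearts (red). Bars give the mean ± SD of 6 arrays. In normoxic hearts the 8-week and 16-week points of each gene do not overlap.

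Among the genes that missed the threshold, the 10 with the smallest p in each direction follow as values. Cds1, a CDP-diacylglycerol synthase of the phospholipid pathway, had a median of 6.60 at 8 weeks and 7.38 at 16 weeks and a log2 fold of 0.69 ± 0.152 (SE, adjusted p = 0.0783). Cds1 was at 8.23 at 32 weeks, and that step did pass (log2 fold from 16 weeks 0.88, adjusted p = 0.00148). Bdh1, the enzyme that interconverts the ketone bodies acetoacetate and 3-hydroxybutyrate, ran from 8.46 to 9.55 and from 9.04 to 10.49, a log2 fold of 1.01 ± 0.227 (SE, adjusted p = 0.0825). Its groups overlapped, and its second probe gave −0.05. Maob, the mitochondrial monoamine oxidase that degrades dopamine and phenylethylamine, ran from 9.92 to 10.30 and from 10.35 to 10.66 with no overlap (log2 fold 0.37 ± 0.084, adjusted p = 0.0825).

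The other 7 on the higher side had log2 folds between 0.23 and 0.68 and adjusted p from 0.157 to 0.362. They were 0610040J01Rik, Tmem41a, the synuclein gene Sncg, the dihydrodiol dehydrogenase Dhdh, the acyl-CoA dehydrogenase Acad11, cardiac troponin T (Tnnt2) and the mitochondrial glutamate carrier Slc25a22. Tnnt2 had medians of 14.97 and 15.20, and its log2 fold of 0.23 was the smallest of these 7.

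On the lower side, Maged2 ran from 9.18 to 9.49 at 8 weeks and from 8.90 to 9.11 at 16 weeks, with no overlap (log2 fold −0.39 ± 0.089, adjusted p = 0.108). Cacna1h, the T-type calcium channel CaV3.2, had medians of 6.51 and 5.97 and was detected on 6 arrays at 8 weeks and 4 at 16 weeks (log2 fold −0.64 ± 0.154, adjusted p = 0.157). Adamts12, a secreted metalloprotease, was detected on 6 and on 2 arrays (log2 fold −0.74, adjusted p = 0.249). The microtubule end-binding protein gene Mapre1, Blzf1, the phospholipid-binding annexin Anxa5, Nxn, the basement membrane collagen Col4a1, the phosphatase inhibitor Ppp1r14c and Tmem51 had log2 folds from −0.58 to −0.31 and adjusted p from 0.249 to 0.353.

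The same age step was available in I/R hearts, where 170 genes passed the threshold, 1.73% of 9811, 55 higher (0.561%) and 115 lower (1.17%) at 16 weeks. That count depended on the fit to all 48 arrays. With the 2 I/R groups fitted alone it was 3, all lower (Rnf144a, Prnd and Cox4i2, the first and last named after their values were seen). The normoxic step fitted in the same way gave 4, of which 3 were shared with the fit to all arrays. Aox1 missed the threshold there (adjusted p = 0.0584, limma). With median centring the I/R count was 46 (20 higher, 26 lower), and without 1 heart it was 92 and 93 without 8-week replicates 1 and 3 and 89 without 16-week replicate 1. At an unadjusted p under 0.05 there were 1391 (14.2%), 581 higher (5.92%) and 810 lower (8.26%). All 4 genes of the normoxic step were among the 170, in the same direction, but none passed with the I/R groups fitted alone, where the adjusted p was 0.0610 for Amy2a5, 0.101 for Aox1, 0.163 for Kcne1 and 0.214 for Ddc. The I/R calls given here are all from the fit to all arrays. Of the 170 genes, 140 (82.4%) had the same sign in normoxic hearts, against 56.9% of all genes, and 47 (27.6%) also had an unadjusted p under 0.05 there in that direction. Across all genes the log2 folds of the 2 steps had a Pearson correlation of 0.29 and a Spearman correlation of 0.22. Genes are not independent replicates, and the arrays of both steps were normalized together.

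The test of the difference between the normoxic and the I/R step passed the threshold for 1 gene, 0.0102%, so the counts of 170 and 4 are not by themselves a difference between the steps. That gene, 1700066M21Rik, was singled out after its values were seen. It was detected on 2 of the 8-week normoxic arrays and on none at 16 weeks, with a log2 fold of −0.26 in normoxic hearts and 1.01 in I/R hearts, a difference of −1.27 (adjusted p = 0.0137). Next by p were Prnd, Slc25a22 and Aplnr, with differences of 1.29, 1.12 and 0.93, and Pdlim3, Cyp1b1 and Dcp1a, with −0.88, −1.03 and −0.80, none of which passed. Prnd and the apelin receptor gene Aplnr had log2 folds near 0 in normoxic hearts (−0.08 and −0.01) and fell in I/R hearts (−1.38 and −0.94). The endothelial protocadherin Pcdh12 had −0.27 in normoxic hearts and fell by 0.84 on the log2 scale in I/R hearts (adjusted p = 0.000222), and 2310002L09Rik had 0.13 and rose by 0.54.

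**Figure D2:**
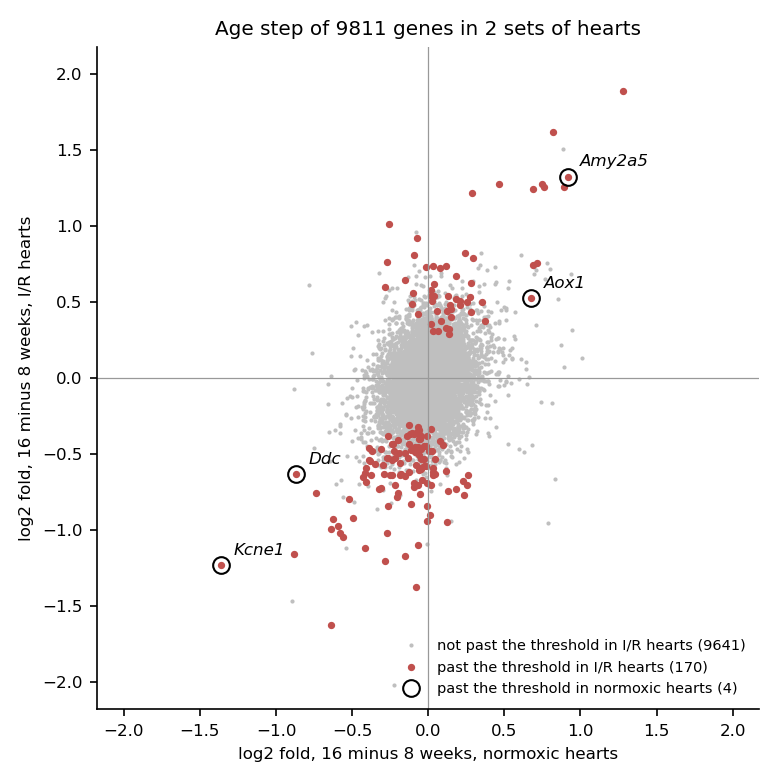
Log2 fold change from 8 to 16 weeks in I/R hearts (vertical) against the same in normoxic hearts (horizontal), 1 point per gene. Red points passed the threshold in I/R hearts (170) and ringed points in normoxic hearts (4). The 4 ringed genes lie in the same direction on both axes, while most red points lie close to 0 on the horizontal axis.

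Of 27 measured genes of collagen and its assembly, 20 had a log2 fold below 0 between 8 and 16 weeks in normoxic hearts, beside 4923 of all 9811, and 7 had an unadjusted p under 0.05, all lower, beside 2.84% of all genes on that side. None passed the adjusted threshold. The list's median log2 fold was −0.17, beside −0.00060 for all genes. Its mean level over members ran from 8.39 to 8.59 in the 8-week hearts and from 8.16 to 8.54 in the 16-week hearts, so the groups overlapped. Without 1 heart the median lay between −0.20 and −0.14 and the count between 6 and 8. Under the other settings the median lay between −0.20 and −0.05 and the count between 7 and 10, while 5 members had a next brightest probe, of which 2 were lower. The list was chosen with earlier results of these data known. A gene counts as measured when detected on at least 6 of all 48 arrays. Col1a2 of this list was detected on no normoxic array at 8 or 16 weeks, nor were Gsta1, Ugt1a6a and Eci2 of lists below.

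The 7 genes were Col4a1, Col4a2, Col6a1, Col18a1, Col5a1, Col15a1 and Col1a1. Col4a1 and Col4a2 encode the chains of the basement membrane collagen network. Col4a1 ran from 11.90 to 12.54 at 8 weeks and from 11.28 to 12.12 at 16 weeks (log2 fold −0.58, adjusted p = 0.332), and Col4a2 from 12.75 to 13.13 and from 12.22 to 12.86 (−0.41, adjusted p = 0.543). In both genes the highest older hearts lay within the 8-week range. Col18a1, whose protein carries endostatin, had medians of 7.76 and 7.28 (−0.47), and the microfibrillar Col6a1 had 11.05 and 10.60 (−0.38).

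Col1a1, the main fibrillar collagen chain, ran from 8.98 to 9.44 at 8 weeks and from 8.26 to 9.54 at 16 weeks, a log2 fold of −0.52 with an unadjusted limma p of 0.0163. The highest older heart exceeded all the young ones. For the I/R step 15 of the 27 genes had an unadjusted p under 0.05 on the lower side and 1 on the higher. Of all genes, 8.26% and 5.92% did so in that step. Past the threshold 5 fell, beside 1.17% of all genes, Col4a1 among them (log2 fold −1.02, adjusted p = 0.000222).

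The list of elastic fibre, basement membrane and matricellular genes had 6 of 31 members at an unadjusted p under 0.05, all lower, beside 2.84% of all genes, with a median log2 fold of −0.11. The count was 4 to 6 without 1 heart, 5 to 8 under other settings and 1 of the 12 members with a next brightest probe. Fbln1, a fibulin of elastic fibres and basement membranes, ran from 10.02 to 10.19 and from 9.52 to 9.97 with no overlap (−0.34, adjusted p = 0.417). Eln, elastin itself, had medians of 7.49 and 6.67 (−0.62), Ccn2, a matricellular growth factor formerly called CTGF, 12.86 and 12.48 (−0.48), and vitronectin, Vtn, 9.03 and 8.69 (−0.37). In I/R hearts Ccn2 and Fbln1 had 0.05 each, while Eln fell by 0.93 and Vtn by 0.48 on the log2 scale.

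Of 22 proteases and inhibitors of the matrix, 16 had a log2 fold below 0, beside 50.2% of all genes, with a median of −0.04. At an unadjusted p under 0.05, 1 was higher and 2 were lower, beside 2.87% and 2.84% of all genes. The gelatinase gene Mmp2 had a log2 fold of −0.29 and the inhibitor Timp3 0.40. Growth factor genes of the insulin-like family had 2 of 18 lower, Igf2 and Igfbp3. Igf2, a growth factor of the fetal heart, ran from 9.74 to 9.90 at 8 weeks and from 9.09 to 9.60 at 16 weeks with no overlap (log2 fold −0.39 ± 0.115, adjusted p = 0.388), and it fell by 0.46 in I/R hearts (adjusted p = 0.0240). Igfbp3, which binds the insulin-like growth factors in plasma and tissue, had −0.57. Of 19 measured cell cycle genes, 1 had an unadjusted p under 0.05, the cell cycle inhibitor Cdkn1a, at −0.43.

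Fibroblast and endothelial markers were read beside these values. Among all genes 2.87% were higher and 2.84% lower at an unadjusted p under 0.05. Of 12 fibroblast markers, 2 had an unadjusted p under 0.05, Mmp2 and Col1a1, both of which the matrix lists also hold, and the median log2 fold was −0.002. Of 18 endothelial markers 1 did, the tight junction gene Cldn5, at −0.42, and the median was −0.03. Of the other cell type lists, those of lymphatic endothelium, smooth muscle and pericytes, macrophages, lymphocytes, neutrophils and mast cells, adipocytes, neurons and Schwann cells, mesothelium, red cells and thymus had no member at that p. The skeletal muscle list had 1, Casq1 (−0.43), the cardiomyocyte list had Tnnt2, and the atrial list had Clu (0.26), which other cells also express. Of the 7 atrial genes measured, 5 had a log2 fold below 0, beside 50.2% of all genes, with a median of −0.28. Among them Myl7 had −0.88 and Myl4 −0.77, neither past the threshold. Mybphl, an atrial gene outside that list picked out for its wide spread, had −0.78 and did not pass either. The 3 red cell genes measured had a median of −0.54. Whether the number of any of these cells changed was not tested.

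Of 28 oxidases and enzymes of xenobiotic metabolism, 24 had a log2 fold above 0, beside 49.8% of all genes. At an unadjusted p under 0.05 there were 7 members, all higher at 16 weeks, beside 2.87% of all genes on that side. The count was 4 without 16-week replicate 2 or 5 and 5 to 8 without any other single heart. It was 6 to 9 under other settings and 0 of the 6 members with a next brightest probe. The list's median log2 fold was 0.15, and Aox1 was the 1 member past the threshold. Adh1, the class I alcohol dehydrogenase, ran from 6.02 to 6.82 and from 6.64 to 8.10 (log2 fold 0.90 ± 0.323, adjusted p = 0.596). The glutathione transferase Gsta3 ran from 8.28 to 8.91 and from 8.60 to 9.80 (0.70 ± 0.258, adjusted p = 0.610). In both genes the lowest older hearts lay within the range of the young ones.

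Gstm2, a further transferase, had medians of 12.22 and 12.35 and a log2 fold of 0.20. Transferase genes are close paralogs, and cross-hybridisation of their probes was not tested. Among I/R hearts 10 of the 28 genes had an unadjusted p under 0.05, all higher, beside 5.92% of all genes. Past the threshold 2 rose, beside 0.561% of all genes. Defence against oxidative stress, a neighbouring list, had 3 of 23 higher at an unadjusted p under 0.05, beside 2.87% of all genes. They were the peroxiredoxins Prdx3 (0.16) and Prdx1 (0.13) and the glutathione synthesis subunit Gclm (0.29). Without 8-week replicate 6 the count was 1. No member was higher at that p without 8-week replicate 4 or 16-week replicate 6, with median centring or with the 2 groups fitted alone.

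**Figure D3:**
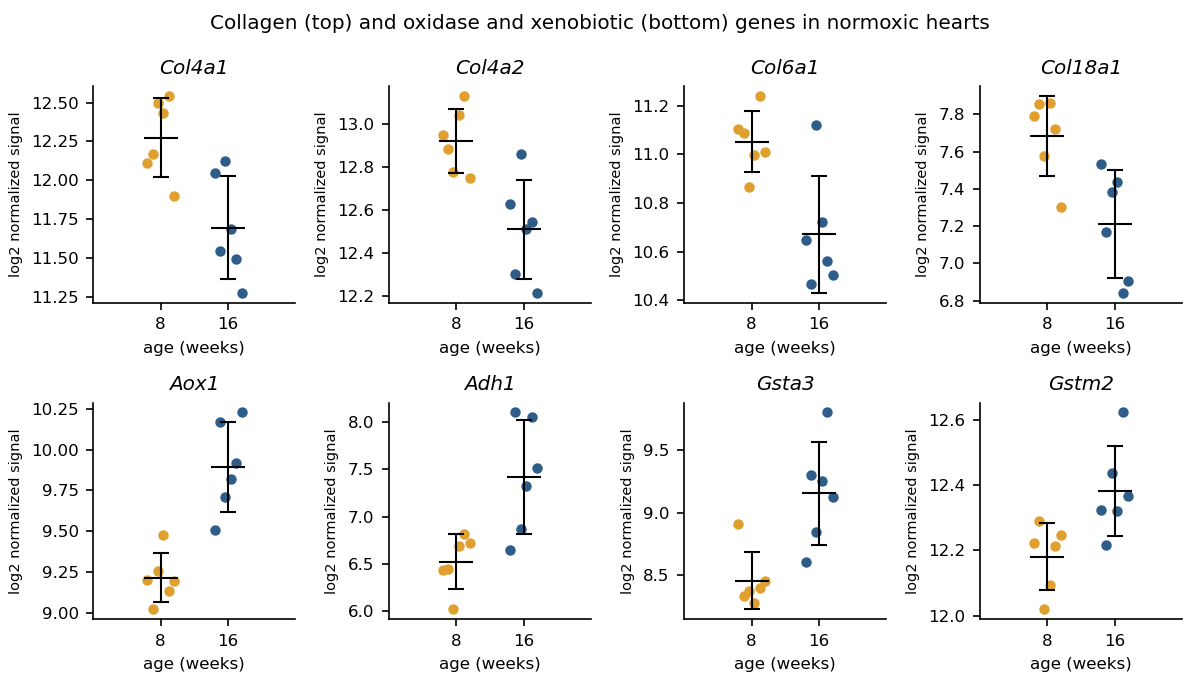
Log2 normalized signal at 8 weeks (orange) and 16 weeks (blue) in normoxic hearts, 1 point per array, with mean ± SD of 6 arrays, for 4 collagen genes (top) and 4 genes of oxidation and xenobiotic metabolism (bottom). The groups overlap in every gene shown except Aox1.

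Genes of fatty acid and ketone use had 8 of 32 members at an unadjusted p under 0.05, all higher at 16 weeks, beside 2.87% of all genes, with a median log2 fold of 0.10. None passed the threshold. The count was 2 without 16-week replicate 6, 5 without 16-week replicate 5, 4 with median centring and 2 of the 14 members with a next brightest probe. Besides Bdh1 they included Pdk4, the kinase that shuts off pyruvate dehydrogenase and so spares glucose, Acot2, a mitochondrial acyl-CoA thioesterase, and Fabp3, the fatty acid binding protein of heart. Pdk4 ran from 11.83 to 13.11 at 8 weeks and from 12.27 to 14.53 at 16 weeks (log2 fold 0.83 ± 0.309, adjusted p = 0.610). Its highest values were 13.62, 13.68 and 14.53 in 16-week replicates 2, 5 and 6. Acot2 was highest in the same 3 hearts, at 9.15, 9.38 and 9.13, against 8.20 to 8.72 in all 8-week hearts. The other 3 older hearts lay within the range of the young ones for Acot2, at 8.42 to 8.56.

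The step of Pdk4 had the opposite sign in I/R hearts (log2 fold −0.66), and the difference between the steps, 1.50, was not past the threshold after adjustment over all genes. Sterol and phospholipid synthesis had 7 of 27 higher at an unadjusted p under 0.05, beside 2.87% of all genes, and none lower, with a median log2 fold of −0.05. The count was 4 without 16-week replicate 6 and with median centring. The 7 included Cds1, Gpam, which adds the first acyl chain to glycerol phosphate (0.74), Chpt1, which makes phosphatidylcholine (0.25), and Cds2 (0.41). The list's median and its count thus differed in direction, and the median was above 0 without 8-week replicate 2 (0.0098), without 16-week replicate 5 (0.0038) and over the 9 members with a next brightest probe (0.09).

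Oxidative phosphorylation, the largest list, had 1 higher and 3 lower of 57 at an unadjusted p under 0.05, with a median log2 fold of −0.01. Among all genes 2.87% were higher and 2.84% lower at that p. Glucose use had 1 lower of 26, the pyruvate kinase Pkm (−0.15). Sarcomere genes had 1 higher and 1 lower of 22, Tnnt2 and the M-band protein Myom2 (−0.33). In the natriuretic peptide and hypertrophy list 2 of 18 were lower, endothelin 1 (Edn1, −0.42) and Nfatc2 (−0.40).

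Among ion channel genes, Kcne1 was the 1 of 19 potassium channel members with an unadjusted p under 0.05. At that p 2.87% of all genes were higher and 2.84% lower. Of 22 genes for calcium and sodium handling and gap junctions, Cacna1h and the connexin 43 gene Gja1 (−0.21) were lower, and the calcium channel subunit Cacnb2 was higher at 0.36, although its second probe gave −0.31. Of 13 measured genes of monoamine synthesis, adrenergic and neuropeptide receptors, Ddc and Ramp1 were lower and Maob higher. Ramp1 ran from 8.08 to 8.54 at 8 weeks and from 7.16 to 7.96 at 16 weeks with no overlap (log2 fold −0.75 ± 0.227, adjusted p = 0.417).

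Of 23 iron and haem genes, 15 had a log2 fold above 0, beside 49.8% of all genes. At an unadjusted p under 0.05, 2 were higher and 1 lower, beside 2.87% and 2.84% of all genes. Slc40a1, the only known iron exporter of mammalian cells, ran from 9.16 to 9.60 and from 9.69 to 10.29 with no overlap (log2 fold 0.55 ± 0.162, adjusted p = 0.390). Tfrc, the transferrin receptor that brings iron in, ran from 10.37 to 11.21 and from 9.20 to 10.70 (−0.88 ± 0.278, adjusted p = 0.417). It fell in I/R hearts by 1.16 on the log2 scale (adjusted p = 0.0185). Haem oxygenase 1, Hmox1, had a log2 fold of 0.65 in normoxic hearts and −0.04 in I/R hearts.

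The chemokine gene Ccl11, eotaxin, ran from 6.50 to 6.87 at 8 weeks and from 7.11 to 7.71 at 16 weeks with no overlap (log2 fold 0.74 ± 0.224, adjusted p = 0.417), and it rose in I/R hearts by 1.27 (adjusted p = 0.000719). Lcn2 had 0.69 and Vcam1 0.40. Thus 3 of the 30 measured genes for cytokines and NF-kappaB targets were higher at an unadjusted p under 0.05, beside 2.87% of all genes, and none was lower. That count was 1 without 8-week replicate 6 or 16-week replicate 3 or 5. No interferon response gene of 30 reached an unadjusted p under 0.05 in either direction. Of the 30, 22 had a log2 fold below 0, beside 50.2% of all genes, with a median of −0.05. Under other settings up to 3 were lower at that p. Of 29 immediate early genes, 25 had a log2 fold below 0, beside 50.2% of all genes, with a median of −0.16. At an unadjusted p under 0.05, 4 were lower, Dusp5 (−0.54), Fosb (−0.66), Fosl1 (−0.43) and Zfp36 (−0.41), beside 2.84% of all genes. The count was 2 without 8-week replicate 5 or 6 or 16-week replicate 2, 1 without 16-week replicate 5, and 3 to 6 under settings other than the next brightest probe, where it was 0 of 9. Immediate early genes are transcribed within minutes of a stimulus. Fosb ran from 9.40 to 10.21 and from 8.65 to 10.26, so that the highest older heart exceeded every young one. Heat shock genes had 1 higher and 1 lower of 24 at an unadjusted p under 0.05, beside 2.87% and 2.84% of all genes. The higher was the mitochondrial Hspa9 (0.16) and the lower the endoplasmic reticulum Hsp90b1 (−0.27).

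**Figure D4:**
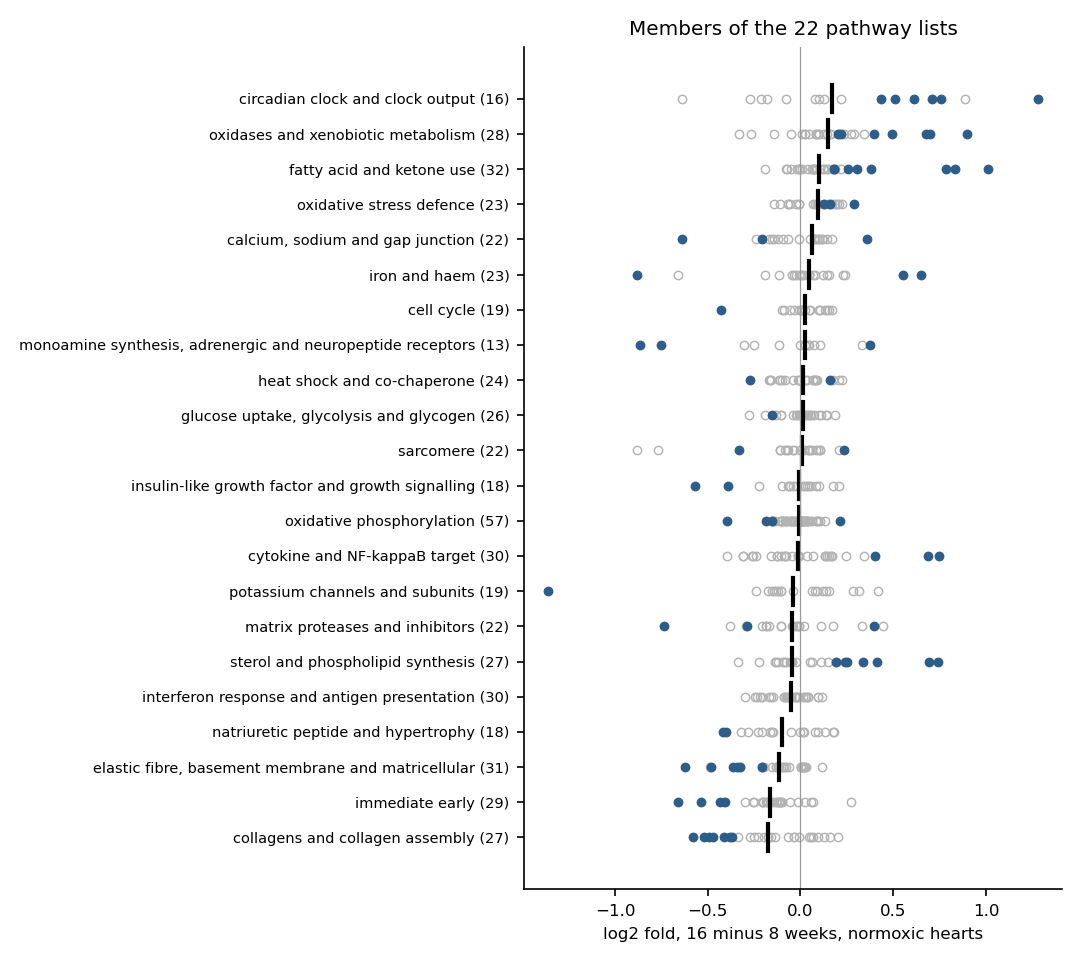
Log2 fold change from 8 to 16 weeks in normoxic hearts for each measured member of the 22 pathway lists, ordered by the list's median (black bar), with the number measured in brackets. Filled points have an unadjusted limma p under 0.05 and open points do not. Collagens sit at the lower end with a median of −0.17 and clock genes at the upper end with 0.17.

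Some circadian clock genes were spread widely between hearts of one age, with a pooled SD of 0.835 for Per3, 0.987 for Arntl, 1.19 for Per2 and 1.41 for Dbp. In the clock, CLOCK and ARNTL (also called BMAL1) activate genes with an E-box in their promoter, among them the Per and Cry repressors and the output factors Dbp and Tef, which in turn act through the D-box. Arntl transcripts peak when those of Per2 and Dbp are low. Of 16 genes measured, 6 had an unadjusted p under 0.05, all higher at 16 weeks, beside 2.87% of all genes, with a median log2 fold of 0.17, and none passed the threshold. The I/R step had 9 higher and 2 lower at that p, beside 5.92% and 8.26% of all genes in that step.

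Because some of these members moved together within hearts, the 250 bases before the start of each clock gene were searched on both strands. The motifs sought were the E-box CACGTG and the D-box TTATGNAA, N being any base. The windows are RefSeq's on GRCm38.p6, and 13 of the 16 genes had 21 windows in all. An E-box lay in 4 of the 21, in Ciart, Tef (both its windows) and Per1, against 6.02% of all 32851 windows. A D-box lay in 2, in Per3 and Per1, against 3.07% of all windows. Of the 6 genes with an unadjusted p under 0.05 in limma, Cry2 and Usp2 had neither motif in their windows, and Per2 had no window. Per1 was not among the 6. The windows of Dbp and Arntl held neither motif. A match describes letters and is no evidence of binding. The windows of 3 of the 6 genes are shown 5′ to 3′ on the strand of the gene, with the motifs in capitals: 3 E-boxes in Ciart (chr3:95882229-95882478, minus strand), 2 D-boxes in Per3 (chr4:151044666-151044915, minus strand) and 1 E-box in the upstream window of Tef (chr15:81802423-81802672, plus strand).
Ciart: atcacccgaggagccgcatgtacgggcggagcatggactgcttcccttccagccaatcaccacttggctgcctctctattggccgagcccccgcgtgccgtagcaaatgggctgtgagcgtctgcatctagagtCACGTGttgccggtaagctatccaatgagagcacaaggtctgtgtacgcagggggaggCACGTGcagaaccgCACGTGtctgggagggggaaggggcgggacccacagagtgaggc
Per3: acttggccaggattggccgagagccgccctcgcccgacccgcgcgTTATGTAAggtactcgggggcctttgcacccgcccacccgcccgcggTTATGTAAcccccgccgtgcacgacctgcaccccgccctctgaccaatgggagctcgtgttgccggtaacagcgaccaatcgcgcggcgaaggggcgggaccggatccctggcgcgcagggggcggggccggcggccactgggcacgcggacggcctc
Tef: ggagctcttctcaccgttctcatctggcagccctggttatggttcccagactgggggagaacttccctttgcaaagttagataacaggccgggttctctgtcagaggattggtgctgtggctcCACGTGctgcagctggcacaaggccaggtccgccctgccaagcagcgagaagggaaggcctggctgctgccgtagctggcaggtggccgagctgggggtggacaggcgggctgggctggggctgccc

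Per2, a repressor of the clock, was at 5.67 to 6.47 in 8-week replicates 1 to 5 and at 8.87 in replicate 6. At 16 weeks it was at 8.77, 8.77 and 9.07 in replicates 2, 4 and 5, at 7.40 in replicate 6 and at 6.77 and 6.22 in replicates 1 and 3. The log2 fold was 1.28 ± 0.507 (SE, adjusted p = 0.669), with an SD between hearts of 1.18 at 8 weeks and 1.20 at 16 weeks. A single young heart and 3 older ones thus formed the upper values, and 5 young and 2 older ones the lower.

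The same hearts stood apart in Dbp, which was at 11.73 in 8-week replicate 6 and at 11.40, 11.75 and 11.64 in 16-week replicates 2, 4 and 5, and at 7.60 to 9.65 in the other 8 hearts. Arntl ran the other way, at 5.65 in 8-week replicate 6 and at 4.88, 5.50 and 4.86 in the 3 older hearts, against 6.21 to 7.58 in the others. Per3 (log2 fold 0.76, adjusted p = 0.729), Tef (0.61), Cry2 (0.71, adjusted p = 0.366), Usp2 (0.51) and Ciart (0.44) had their highest values at each age among the same hearts. Per1 was also highest in these hearts at each age, and Clock lowest. Other members did not follow. Nr1d1 and Bhlhe40 were highest in replicate 6 at 8 weeks (9.22 and 11.20) but in replicate 1 at 16 weeks (8.88 and 11.04). Their means fell from 8.90 to 8.63 and from 10.75 to 10.54. Rora, Csnk1d and Nr1d2 did not set these hearts apart. All clock genes named here other than Per2, Per3, Cry2 and Usp2 were described after their values were seen.

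The mice lived in a 12 h light and dark cycle, and the time of day at which each heart was taken is not given in the sources used here. Its part in the clock values was not tested. Without 8-week replicate 6, 7 clock genes were higher and 1 lower at an unadjusted p under 0.05, and the median log2 fold was 0.24. The count of higher genes was 3 without 8-week replicate 3 or 16-week replicate 2 or 4, and 2 without 16-week replicate 5. Over all fits without 1 heart the median lay between 0.11 and 0.29. For the 8 members with a next brightest probe it was −0.0084.

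**Figure D5:**
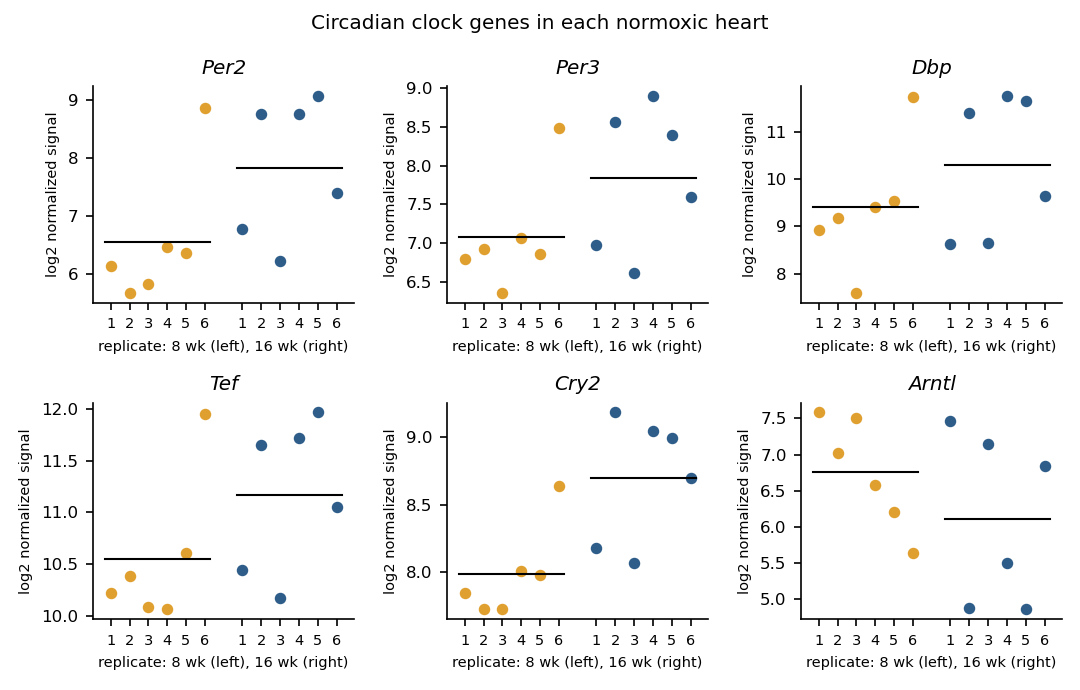
Log2 normalized signal of 6 clock genes in each normoxic heart, by replicate number at 8 weeks (orange, left) and 16 weeks (blue, right), with the group mean as a line. The 8-week replicate 6 and the 16-week replicates 2, 4 and 5 are high in Per2, Per3, Dbp, Tef and Cry2 and low in Arntl.

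At later ages the step from 16 weeks was again small in normoxic hearts. Between 16 and 32 weeks 5 genes passed the threshold, 0.051% of all, of which Cds1, Rab4a and Wdfy1 were higher (0.0306%) and Entpd4 and Tnni2 lower (0.0204%) at 32 weeks, the last 4 of these named after their values were seen. Between 16 and 48 weeks 35 genes passed, 0.357%, 27 higher (0.275%) and 8 lower (0.0815%) at 48 weeks. Amy2a5 and Ddc were among the 35, with the same direction as between 8 and 16 weeks, as were Cds1 (log2 fold 1.16) and Amy1 (0.90, adjusted p = 0.0369). These steps use the 16-week hearts that the step from 8 weeks also uses.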

How the data were processed

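Illumina mouse bead arrays measured left ventricular RNA of 48 mouse hearts. The deposited signal is a probe intensity without normalization, per the file headers. Its companion, which the header calls a detection p-value, is a deposited fraction that increases with signal (rank correlation at least 0.995 on each array), so it was read as 1 minus the detection p. The authors also deposited processed values close to a log2 scale, made with lumi per the submitters' processing notes; their transform and normalization are not given in the sources used here, and they served as an alternative. Biotin labelling used a TotalPrep kit, per the labels.

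With limma 3.58.1 in R 4.3.3 the background was estimated from detection p-values (normexp, offset 16), arrays were quantile-normalized, and log2 was taken. Probes with a detection p under 0.05 on at least 6 of 48 arrays were kept (17624 of 46624), and the brightest probe stood for each of 9811 genes. Gene symbols came from the platform annotation, updated through the Entrez number; 4077 kept probes had no single symbol. A mean for each of 8 groups was fitted to all arrays (lmFit, eBayes), and two-sided p-values were adjusted by Benjamini-Hochberg over all genes. The steps from 8 to 16 weeks in normoxic and in I/R hearts, their difference, and the normoxic steps from 16 to 32 and 48 weeks were tested. Levels are log2 normalized signals, which cannot be compared between probes. The number of arrays limits the precision. The code was tested on simulated data.

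Genes named are those past the threshold, the next 10 in each direction by p that were detected on all 6 arrays of either age, up to 4 members of each of 22 pathway and 16 cell type lists by p when under 0.05 unadjusted, the 3 by p in each direction in I/R hearts and in the difference of steps, and the 3 closest in pattern to each gene past the threshold. Members and lists were chosen with earlier results of these data known. The labels number replicates 1 to 6 in each group without saying what a number marks. Deviations of same-numbered hearts correlated at 0.018 to 0.105, with 1 of 6 pairs over 0.1, so the numbers were not used as pairs. Nothing says whether hearts were randomised over arrays.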

Additional observations from a re-analysis of the deposited data

Results flagged for a closer look

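In all, 182 sets of 6 hearts were checked, for the named genes and for RIN, median signal and detected probes. Of these sets, 11 held a heart whose gap to its nearest neighbour, divided by the range, exceeded Dixon's critical value. Chance gives about 1 in 20. Replicate 6 of the 8-week group stood alone in 5 of the 11, with clock genes Cry2 (ratio 0.691), Usp2 (0.807), Per2 (0.751) and Per3 (0.668) high and Anxa5 low (0.669). This heart also had the lowest RIN of the 12 normoxic hearts, 8.0. Replicate 1 of that group was low in Cacna1h (0.671) and high in Gsta3 (0.716), replicate 3 high in Hspa9 (0.639) and replicate 4 low in Atp5g3 (0.64). At 16 weeks replicate 6 was high in Fabp3 (0.651) and replicate 1 in Fosb (0.664).

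The step from 8 to 16 weeks differed between normoxic and I/R hearts past the threshold for 1700066M21Rik alone (adjusted p = 0.0137, limma).

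When all 17624 detected probes were tested singly, an alternative chosen after seeing the data, 5 passed the threshold, 2 of which have no gene symbol in the annotation used here. Probe ILMN_1260036 had the smallest p (log2 fold 0.99, adjusted p = 0.000799). It ran from 6.84 to 7.30 at 8 weeks and from 7.79 to 8.16 at 16 weeks, with means of 8.58 at 32 weeks and 8.70 at 48 weeks. Probe ILMN_2633179 rose by 1.09 (adjusted p = 0.0403), from 5.92 to 6.75 at 8 weeks to 7.24 to 7.85 at 16 weeks, and its means at 32 and 48 weeks were 8.52 and 9.05. In I/R hearts both rose too, by 0.59 (adjusted p = 0.0325) and 1.21 (adjusted p = 0.0012).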

How the results depend on the processing

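For 16 against 8 weeks in normoxic hearts, 4 genes passed the threshold, and the count was 3 to 6 under other normalization, background, filter and sample choices, 2 with RIN as a covariate, 20 with array weights (all 4 among them) and 0 with the next brightest probe, where only 2813 genes have such a probe (112 at an unadjusted p under 0.05 in limma). With the replicate number as a block it was 3. Leaving out 1 heart gave 0 to 6. For I/R hearts (170) it was 46 with median centring, 3 in the fit of those groups alone, 81 with array weights and 8 with the next probe, and 89 to 190 without 1 heart. For the difference of steps (1) it was 2 with no filter or with array weights, 0 with the strict filter, a detection p under 0.01 or the next probe, and 0 to 3 without 1 heart. For 32 against 16 weeks (5) it was 13 with median centring, 8 with offset 50 or a detection p under 0.01, 10 with array weights and 2 with the next probe, and 4 to 8 without 1 heart. For 48 against 16 weeks (35) it was 12 with RIN, 84 with array weights and 4 with the next probe, and 15 to 45 without 1 heart. The differences in RIN, median signal and detected probes between the ages ran from 0.13 to 0.323, −1.04 to 2.28 and −243.1 to 33.5 without 1 heart. With the next brightest probe the sign turned for Bdh1 (−0.046), Cacnb2 (−0.31) and, in I/R hearts, 2310002L09Rik (−0.066). Amy2a5 kept its call under all 12 choices other than leaving out a heart. Ddc lost it in the normoxic arrays alone (log2 fold −0.56, adjusted p = 0.425) and Kcne1 with RIN (adjusted p = 0.107), both also with the next probe. For the normoxic arrays alone the brightest probe of each gene was chosen anew, and the next probe of Ddc gave −0.50. Whether the probe of Ddc changed there was not tested. Aox1 lost its call in 6 of 13 choices, among them median centring (0.114) and the replicate block (0.0999). The causes were not tested. Dim probes such as that of Ddc are limited by signal over background.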

Other observations

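The following genes were picked out after their values were seen, for their wide spread between hearts of one age. Fbxw5, a subunit of ubiquitin ligases, was at 9.63 and 9.36 in 8-week replicates 2 and 5 and at 9.91 and 8.24 in 16-week replicates 4 and 5, and at 5.17 to 6.01 in the other 8 hearts, with no value in between. Its log2 fold between the ages was −0.24. Spon2, a secreted matrix protein, was at 6.75 in 8-week replicate 6 and at 6.25, 7.03, 6.62 and 7.12 in 16-week replicates 2, 4, 5 and 6, against 8.59 to 9.32 in the remaining hearts, with a log2 fold of −0.89 between the ages that was not past the threshold. The first 4 of these 5 hearts are those with high Dbp and low Arntl. The atrial gene Mybphl ran from 6.04 to 9.01 at 8 weeks and from 6.33 to 8.01 at 16 weeks (log2 fold −0.78). Lyz2, the lysozyme of macrophages, ran from 9.04 to 11.53 and from 10.62 to 12.00. Beta globin Hbb-bs was at 8.45 and 8.44 in 8-week replicates 1 and 5 and at 6.67 to 7.42 in the other 10 hearts.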
